A study of Mus musculus with 15 samples.

Results

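The genes of cholesterol synthesis and of its regulator SREBP2 were followed in tumour-infiltrating myeloid cells of the mouse. The set holds 29 genes, taken by symbol from a count table of 50508 symbols, and all 29 were among the 13800 genes that passed the filter on low counts. The cells were sorted from 10-day tumours of the Lewis lung carcinoma line (LLC). The tumours are labelled Mock-LLC, the control, or SULT2B1b-LLC after a sulfotransferase whose known substrates are cholesterol and oxysterols, and the labels give no vector or promoter. Cells positive for CD11c and MHC-II with high Ly6C, written Ly6Chigh, were sorted apart from Ly6Clow cells. Libraries of Ly6Clow cells came from 4 Mock-LLC tumours and from SULT2B1b-LLC tumours 2, 3 and 4 (n = 3). Libraries of Ly6Chigh cells came from 4 tumours of each type. The label names the line of the tumour, not of the sorted cells. The labels number the tumours but give no mouse strain, age or sex, and do not say whether each tumour had its own host, so the p-values here cover only sample-to-sample spread.

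Cholesterol is built from acetyl-CoA through mevalonate, the isoprenoids, squalene and lanosterol. SREBP2 is made as a membrane protein of the endoplasmic reticulum and is bound there by its escort SCAP. When sterols are scarce, SCAP carries it to the Golgi, where the site-specific proteases of Mbtps1 and Mbtps2 free the part that enters the nucleus and switches on nearly the whole synthesis route, and when sterols are plentiful the INSIG proteins hold SCAP back. Macrophages also take up cholesterol from lipoproteins and dying cells, which lowers their need for synthesis.

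The promoters of 5 of the 6 members past the threshold in a comparison described here, Fdft1 being the other, are shown because their genes moved and because SREBP2 acts at such windows, together with the factors NF-Y and Sp1. Each runs from 250 bases before the RefSeq start to 50 bases after it, on the strand of the gene, in build GRCm38.p6 (RefSeq). Capitals mark 1 form of the SREBP site, TCACNCCAC, and the NF-Y box CCAAT, on either strand. ATTGG is thus the same box read from the other side. Other forms of the SREBP site were not searched for and are not marked. The windows are chr13:119690101-119690400 (plus strand) for Hmgcs1, chr5:4104648-4104947 (minus) for Cyp51, chr8:64733529-64733828 (minus) for Msmo1, chrX:72918271-72918570 (plus) for Nsdhl and chr5:28071162-28071461 (plus) for Insig1.
Hmgcs1: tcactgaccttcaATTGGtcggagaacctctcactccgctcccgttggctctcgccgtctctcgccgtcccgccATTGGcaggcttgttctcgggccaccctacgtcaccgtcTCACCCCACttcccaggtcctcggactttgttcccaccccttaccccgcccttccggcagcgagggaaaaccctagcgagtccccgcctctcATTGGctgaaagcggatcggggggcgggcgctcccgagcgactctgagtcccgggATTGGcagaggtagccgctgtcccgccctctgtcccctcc
Cyp51: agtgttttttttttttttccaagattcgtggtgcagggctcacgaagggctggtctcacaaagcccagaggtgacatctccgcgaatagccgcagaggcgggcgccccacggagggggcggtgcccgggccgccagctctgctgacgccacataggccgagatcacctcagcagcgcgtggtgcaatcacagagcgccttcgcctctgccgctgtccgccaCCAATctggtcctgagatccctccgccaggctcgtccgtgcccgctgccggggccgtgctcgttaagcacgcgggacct
Msmo1: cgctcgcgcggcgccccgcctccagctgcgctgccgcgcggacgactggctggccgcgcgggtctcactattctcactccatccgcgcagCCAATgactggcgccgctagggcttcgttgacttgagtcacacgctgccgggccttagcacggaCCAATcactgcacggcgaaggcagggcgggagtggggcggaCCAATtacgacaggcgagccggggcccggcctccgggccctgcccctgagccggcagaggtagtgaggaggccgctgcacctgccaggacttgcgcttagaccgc
Nsdhl: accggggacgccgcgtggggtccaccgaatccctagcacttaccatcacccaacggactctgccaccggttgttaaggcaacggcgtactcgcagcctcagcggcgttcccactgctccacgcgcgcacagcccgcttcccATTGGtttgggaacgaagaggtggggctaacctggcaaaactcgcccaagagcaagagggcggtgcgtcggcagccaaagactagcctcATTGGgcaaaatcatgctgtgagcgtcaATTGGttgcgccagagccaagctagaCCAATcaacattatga
Insig1: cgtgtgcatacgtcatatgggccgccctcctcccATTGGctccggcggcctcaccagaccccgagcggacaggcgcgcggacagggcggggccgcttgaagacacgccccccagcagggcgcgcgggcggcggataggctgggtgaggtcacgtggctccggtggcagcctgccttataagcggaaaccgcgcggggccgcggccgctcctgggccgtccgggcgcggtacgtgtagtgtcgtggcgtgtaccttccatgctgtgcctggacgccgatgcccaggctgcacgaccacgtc

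Of the 29 members 25 were matched to a promoter window. The SREBP site in its strict form TCACCCCAC was found in 1 of 25, Hmgcs1, where it begins 137 bases before the start, against 0.522% of the 27025 promoters of the table. The looser TCACNCCAC was found in the same promoter, against 1.22% of all promoters. The box CCAAT was found in 19 of 25 members (76%) against 37.9% of all promoters, and the Sp1 box GGGCGG in 20 of 25 (80%) against 35.9%. The E-box CACGTG was found in 4 of 25 (16%) against 7.24%. Both strands were searched, and the strict SREBP site is a case of the looser one. A match is a run of letters and not a measured binding site. A window without a match may still hold an SREBP site of another form.

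Depth differed between the populations. Ly6Clow libraries held 19792494 to 39284008 counts and Ly6Chigh libraries 2617878 to 10626954. SULT2B1b-LLC tumour 1 gave the Ly6Chigh library with the fewest counts, 2617878, and yet the most genes detected, 24540 against 13123 to 17737 in the rest of that population. Levels are given as CPM, a gene's count scaled to its library's TMM-adjusted size, and Ly6Chigh values that move most without that library are also given without it. Sult2b1 ran from 0 to 0.510 CPM in all Mock-LLC libraries, from 1.12 to 2.39 CPM in SULT2B1b-LLC Ly6Clow cells and from 9.31 to 19.1 CPM in SULT2B1b-LLC Ly6Chigh cells. All 9 genes of the myeloid list were detected in every group, and Ly6c2 ran from 970.5 to 2111 CPM in Ly6Chigh and from 19.2 to 34.4 CPM in Ly6Clow cells. The T and NK cell list summed to at most 4.92 CPM in any library.

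In SULT2B1b-LLC tumours the enzymes of the route were mostly higher than in Mock-LLC tumours, in both populations, while the genes of the SREBP2 machinery were not shifted as a group. Averaged over both populations, 5 of 29 members rose and 0 fell in the edgeR quasi-likelihood test (adjusted p under 0.05 over all genes), where 1.24% of all genes tested rose, 0.616% fell and 1.86% did either. They were Hmgcs1, Fdft1, Cyp51, Msmo1 and Nsdhl. Their log2 fold changes were 0.51, 0.71, 0.78, 0.86 and 0.71, with approximate standard errors of 0.12, 0.14, 0.16, 0.09 and 0.16 and adjusted p-values of 0.0479, 0.0155, 0.0153, 8.31e-05 and 0.0272. The median log2 fold change was 0.51 over the members against 0.00 over all genes, and 25 of 29 members had a positive value. At an unadjusted p under 0.05, 14 members were higher and 0 lower, against 5.95% and 5.05% of all genes. By the labels most tumours supplied a library to each population, yet the edgeR fit treated all libraries as independent. The p-values of this average therefore do not allow for libraries that share a tumour. When limma-voom was run with such libraries grouped by tumour, 6 members passed, against 2.7% of all genes in either direction.

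Within Ly6Chigh cells 2 of 29 members rose, Msmo1 and Nsdhl, and 0 fell, against 0.891% of all genes that rose, 0.725% that fell and 1.62% that did either. Within Ly6Clow cells 2 of 29 rose, Cyp51 and Msmo1, and 0 fell, against 0.507%, 0.130% and 0.638% of all genes. At an unadjusted p under 0.05, 10 members were higher and 1 lower in Ly6Chigh cells, against 8.33% and 7.26% of all genes, and 11 were higher and 0 lower in Ly6Clow cells, against 2.18% and 1.56%. The members' median log2 fold change was 0.50 in Ly6Chigh and 0.54 in Ly6Clow cells, against 0.03 and -0.02 over all genes, and 25 of 29 values were positive in each. The number of members past the threshold rested on the model. In fits of only the libraries compared it was 0 in Ly6Chigh and 8 in Ly6Clow cells, where 0.0257% of 11655 and 1.71% of 14641 genes rose. Leaving out each of the 8 Ly6Chigh libraries in turn changed the sign of the Ly6Chigh log2 fold change of 5 members, Acat2, Srebf2, Insig1, Mbtps1 and Stard4, and leaving out each of the 7 Ly6Clow libraries changed the sign of 0 in Ly6Clow cells. Without SULT2B1b-LLC tumour 1 the Ly6Chigh median was 0.48, with 26 positive values.

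**Figure D1:**
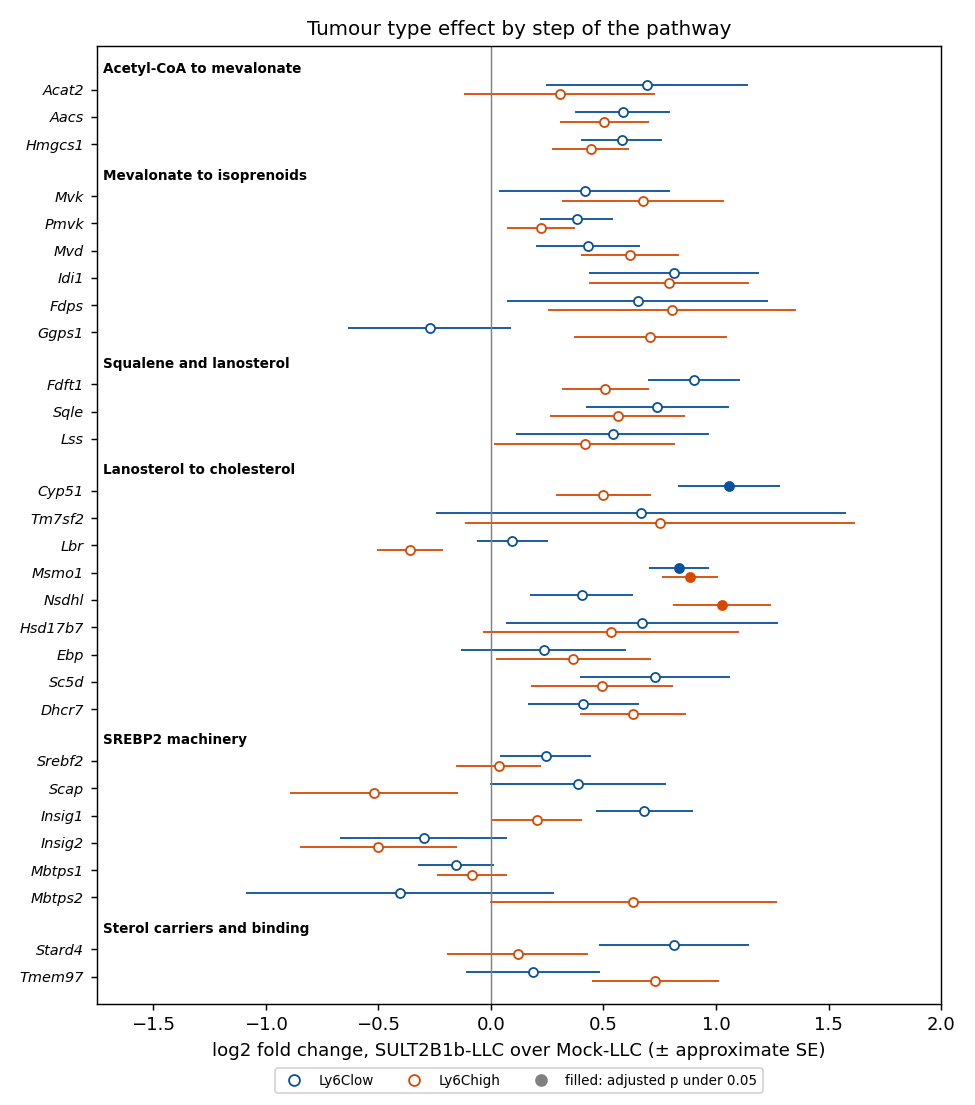
Log2 fold changes of SULT2B1b-LLC over Mock-LLC tumours for the 29 members, ordered by step, in Ly6Clow (blue) and Ly6Chigh cells (orange), with approximate standard errors from the edgeR fit; filled points passed an adjusted p of 0.05. Most enzymes lie right of 0 in both populations, and the SREBP2 machinery lies on both sides of it.

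Counting libraries rather than model calls, the populations differed in spread. In Ly6Clow cells 18 of 29 members were higher in every SULT2B1b-LLC library than in every Mock-LLC library, against 7.59% of all genes, and 2 were lower throughout, Insig2 and Mbtps2, against 8.55%. In Ly6Chigh cells 3 members were higher throughout, Idi1, Msmo1 and Nsdhl, against 2.78% of all genes, 0 were lower throughout, against 2.75%, and 26 overlapped. Without the Ly6Chigh cells of SULT2B1b-LLC tumour 1, a setting chosen after the libraries were inspected, 6 were higher throughout, Aacs, Mvk, Idi1, Msmo1, Nsdhl and Ebp, against 5.38% of all genes, and 0 were lower, against 4.72%. The median coefficient of variation of the members was 10.3% and 13.2% in Mock-LLC and SULT2B1b-LLC Ly6Clow cells and 26.1% and 24.9% in Ly6Chigh cells. Summed over the 29 members, the level was 1283 to 1343 CPM in Mock-LLC and 1599 to 1901 CPM in SULT2B1b-LLC Ly6Clow cells. The sum was 1278 to 1599 and 1653 to 1923 CPM in Ly6Chigh cells, so the tumour types did not overlap in this sum in either population. In bulk samples such as these, fewer cells of a type and less RNA per cell cannot be told apart.

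**Figure D2:**
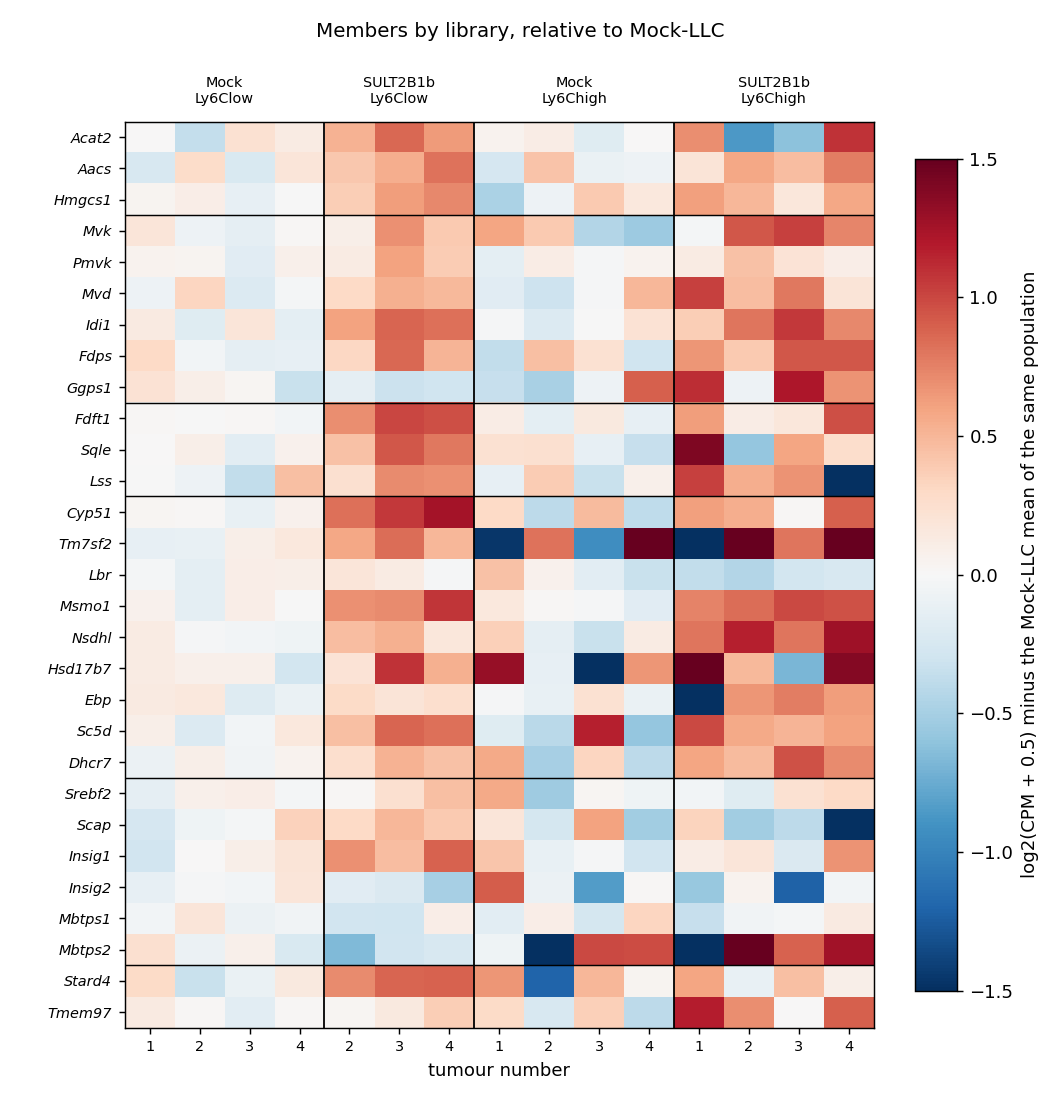
Each cell is the log2(CPM + 0.5) of a member in a library minus the mean of the Mock-LLC libraries of the same population, with colours ending at -1.5 and 1.5; rows follow the steps of the route. Most enzyme rows are red in all 3 SULT2B1b-LLC Ly6Clow libraries, and the Ly6Chigh columns are more uneven.

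The first step joins acetyl-CoA units into acetoacetyl-CoA and HMG-CoA, and holds the thiolase Acat2, the acetoacetyl-CoA synthetase Aacs and the HMG-CoA synthase Hmgcs1. Hmgcs1 (chromosome 13, 119690379 to 119708260) stood at 80.0, 83.3, 71.6 and 77.5 CPM in Mock-LLC Ly6Clow cells and at 101, 121 and 129 CPM in SULT2B1b-LLC Ly6Clow cells. In Ly6Chigh cells it stood at 72.7, 96.0, 133 and 113 CPM in Mock-LLC and at 156, 143, 114 and 151 CPM in SULT2B1b-LLC tumours. The Ly6Clow groups did not overlap, while in Ly6Chigh cells the highest Mock-LLC library exceeded the lowest SULT2B1b-LLC one. Its log2 fold change was 0.58 ± 0.18 (SE) in Ly6Clow cells (adjusted p = 0.377) and 0.44 ± 0.17 in Ly6Chigh cells (adjusted p = 0.202), so that it passed only on average over both. Even that call was lost when any of 11 of the 15 libraries was left out, with adjusted p-values up to 0.15. Aacs had log2 fold changes of 0.59 and 0.50 in Ly6Clow and Ly6Chigh cells and 0.54 on average (adjusted p = 0.0757). Acat2, at 6.21 to 25.3 CPM over all libraries, has a near-identical neighbour, Acat3, so its counts are uncertain.

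Mevalonate is next phosphorylated by Mvk and Pmvk and decarboxylated by Mvd, and Idi1, Fdps and Ggps1 isomerise and join the resulting isoprenoid units. No member of this step passed the threshold in either population, yet the 6 log2 fold changes in Ly6Chigh cells were all positive, from 0.22 for Pmvk to 0.80 for Fdps. Those of Mvk and Mvd were 0.68 ± 0.36 and 0.62 ± 0.22 (adjusted p = 0.395 and 0.16). In Ly6Clow cells 5 of 6 were positive, and that of Ggps1, which makes the geranylgeranyl group used to anchor proteins in membranes, was -0.27 ± 0.36. Idi1, the isopentenyl diphosphate isomerase, was the only member of this step whose tumour types were apart in both populations. It stood at 6.06, 4.77, 6.27 and 4.88 CPM in Mock-LLC and at 8.52, 10.4 and 10.1 CPM in SULT2B1b-LLC Ly6Clow cells. In Ly6Chigh cells the Idi1 levels were 7.41, 6.50, 7.53 and 8.87 CPM against 9.84, 13.6, 16.2 and 12.8 CPM, again with no overlap. Its log2 fold changes of 0.82 ± 0.38 and 0.79 ± 0.36 did not pass (adjusted p = 1 and 0.294), nor did the average (0.80 ± 0.26, adjusted p = 0.173). Fdps was the lowest member per length in all 4 groups, at 0.655 to 1.15 CPM per kb of exon. The gene model Gm43738 on the same strand shares 26.7% of that exon length and had 0 counts. How reads falling in both were counted is not stated, so the low level of Fdps is uncertain.

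Squalene and lanosterol are made by Fdft1, the squalene synthase that commits isoprenoids to sterols, by the epoxidase Sqle and by the cyclase Lss. Fdft1 (chromosome 14, 63145150 to 63179578) stood at 29.4, 28.8, 29.4 and 28.1 CPM in Mock-LLC Ly6Clow cells and at 47.1, 58.3 and 56.7 CPM in SULT2B1b-LLC ones. In Ly6Chigh cells it stood at 45.5, 37.9, 46.3 and 38.6 CPM against 65.1, 45.3, 47.1 and 82.3 CPM. The Ly6Clow groups were well apart, and in Ly6Chigh cells 1 SULT2B1b-LLC library lay within the Mock-LLC range. The log2 fold change of Fdft1 was 0.90 ± 0.21 in Ly6Clow cells (adjusted p = 0.0743) and 0.51 ± 0.19 in Ly6Chigh cells (adjusted p = 0.2). Its average passed (adjusted p = 0.0155), but not with no filter. Nor did it pass without the Ly6Clow cells of SULT2B1b-LLC tumour 3 (adjusted p = 0.0675) or tumour 4 (adjusted p = 0.0613). Fdft1 and the protease gene Ctsb overlap on opposite strands over 774 bases, 18.3% of the exon length of Fdft1, and the library kit does not mark strand. Ctsb had 1007906 counts over all libraries, while Fdft1 had 172 to 1710 counts per library. The part of Ctsb reads in the Fdft1 counts was not tested, so the differences of Fdft1 are uncertain. Sqle, a rate-limiting enzyme of the route, ranged from 56.1 to 223 CPM in SULT2B1b-LLC Ly6Chigh cells, the highest value being that of tumour 1, and its log2 fold changes were 0.74 ± 0.32 and 0.56 ± 0.30 in Ly6Clow and Ly6Chigh cells. Without tumour 1 the Ly6Chigh value of Sqle was 0.16. The log2 fold changes of Lss were 0.54 and 0.42, the latter being 0.17 without tumour 1.

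Lanosterol is turned into cholesterol by demethylation, reduction and a shift of double bonds. Cyp51, the lanosterol demethylase (chromosome 5, 4081145 to 4104746), was the member with the largest log2 fold change in Ly6Clow cells. It stood at 68.9, 68.5, 62.2 and 70.3 CPM in Mock-LLC and at 120.0, 141 and 160.4 CPM in SULT2B1b-LLC Ly6Clow cells. In Ly6Chigh cells the Cyp51 levels were 111, 68.7, 126 and 69.4 CPM against 139, 133, 91.5 and 168 CPM. The Ly6Clow groups lay far apart, and in Ly6Chigh cells the groups overlapped. The log2 fold change was 1.06 ± 0.23 in Ly6Clow cells (adjusted p = 0.0468) and 0.50 ± 0.21 in Ly6Chigh cells (adjusted p = 0.26). The call in Ly6Clow cells was lost when any of 9 libraries was left out. These were all 7 Ly6Clow libraries and the Ly6Chigh ones of SULT2B1b-LLC tumours 1 and 2, with adjusted p-values from 0.0528 to 0.285. No scaling factors, no filter and the replicate block each lost that call as well. Averaged over both populations the rise of Cyp51 passed, except without the Ly6Clow cells of SULT2B1b-LLC tumour 3 (adjusted p = 0.0501) or tumour 4 (adjusted p = 0.0654).

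Msmo1, the methylsterol monooxygenase that oxidises the methyl groups left after Cyp51 has acted (chromosome 8, 64718139 to 64733792), rose in both populations. It stood at 74.4, 64.1, 75.9 and 70.6 CPM in Mock-LLC and at 115, 116 and 150.4 CPM in SULT2B1b-LLC Ly6Clow cells. In Ly6Chigh cells the Msmo1 levels were 106, 96.1, 94.0 and 84.6 CPM in Mock-LLC and 159, 170.1, 189 and 184 CPM in SULT2B1b-LLC tumours. No library of one tumour type reached the range of the other in either population. The log2 fold change was 0.84 ± 0.13 in Ly6Clow (adjusted p = 0.00512) and 0.88 ± 0.12 in Ly6Chigh cells (adjusted p = 0.00309), and the average over both kept its side of the threshold in all 23 alternative settings. The call in Ly6Clow cells was lost with no filter and without the library of SULT2B1b-LLC tumour 4 (adjusted p = 0.0821 for the latter). That in Ly6Chigh cells was lost when the fit held no Ly6Clow library (adjusted p = 0.112) or with voom and quality weights (adjusted p = 0.0644).

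Nsdhl (chromosome X, 72918557 to 72958514) and Hsd17b7 act in the same demethylation complex, as the decarboxylating dehydrogenase and the ketone reductase. Nsdhl stood at 25.2, 22.8, 22.4 and 22.1 CPM in Mock-LLC and at 32.1, 33.6 and 26.0 CPM in SULT2B1b-LLC Ly6Clow cells. In Ly6Chigh cells it stood at 22.6, 15.9, 13.8 and 19.1 CPM against 31.0, 39.9, 31.1 and 43.1 CPM. The tumour types were apart in both populations, narrowly in Ly6Clow cells. The log2 fold change of Nsdhl was 1.03 ± 0.22 in Ly6Chigh cells (adjusted p = 0.0296) and 0.40 ± 0.23 in Ly6Clow cells (adjusted p = 1). Leaving out any of 8 libraries ended the call in Ly6Chigh cells, with adjusted p-values from 0.0515 to 0.0715. Of these the Ly6Chigh ones were Mock-LLC tumours 2 and 3 and SULT2B1b-LLC tumours 2 and 4. The Ly6Clow ones were Mock-LLC tumour 3 and all 3 of SULT2B1b-LLC. The same call was lost with no filter, with voom with or without quality weights, with the replicate block and when the fit held no Ly6Clow library. In all, 13 of 24 alternative settings lost it, with adjusted p-values up to 0.361. The average over both was lost with no filter and without any of 8 libraries, in the latter case with adjusted p-values up to 0.133.

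The other enzymes of this step did not pass. Hsd17b7, the sterol isomerase Ebp, the desaturase Sc5d and Dhcr7, which carries out the final reduction of the Kandutsch-Russell route, had log2 fold changes of 0.67, 0.24, 0.73 and 0.41 in Ly6Clow cells and 0.53, 0.37, 0.49 and 0.63 in Ly6Chigh cells. Of the Ly6Chigh values, those of Hsd17b7, Ebp and Sc5d turned on single libraries. With 1 Ly6Chigh library left out, Hsd17b7 ran from 0.19 without Mock-LLC tumour 3 to 1.04 without Mock-LLC tumour 1, Ebp reached 0.69 without SULT2B1b-LLC tumour 1, and Sc5d reached 1.07 without Mock-LLC tumour 3. All 4 were higher in every SULT2B1b-LLC than in every Mock-LLC library in Ly6Clow cells. Ebp in Ly6Chigh cells stood at 51.3 to 65.0 CPM in Mock-LLC and at 85.8 to 94.4 CPM in SULT2B1b-LLC tumours 2, 3 and 4, but at 16.3 CPM in tumour 1. Without that library 3 members passed in Ly6Chigh cells, Msmo1, Nsdhl and Ebp, where 2.46% of 14170 genes changed in either direction. The sterol reductases Tm7sf2 and Lbr carry out the same reduction, Lbr being also a receptor for lamin in the nuclear envelope. Tm7sf2 shares 12.1% of its exon length with Vps51 on the same strand and was too low in Ly6Chigh cells for a firm comparison, with 0 counts in the library of SULT2B1b-LLC tumour 1, which allows up to 1.14 CPM. Lbr was the only enzyme of this step with a negative value in Ly6Chigh cells (-0.36 ± 0.15, adjusted p = 0.244), and in Ly6Clow cells it was at 0.10 ± 0.16.

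**Figure D3:**
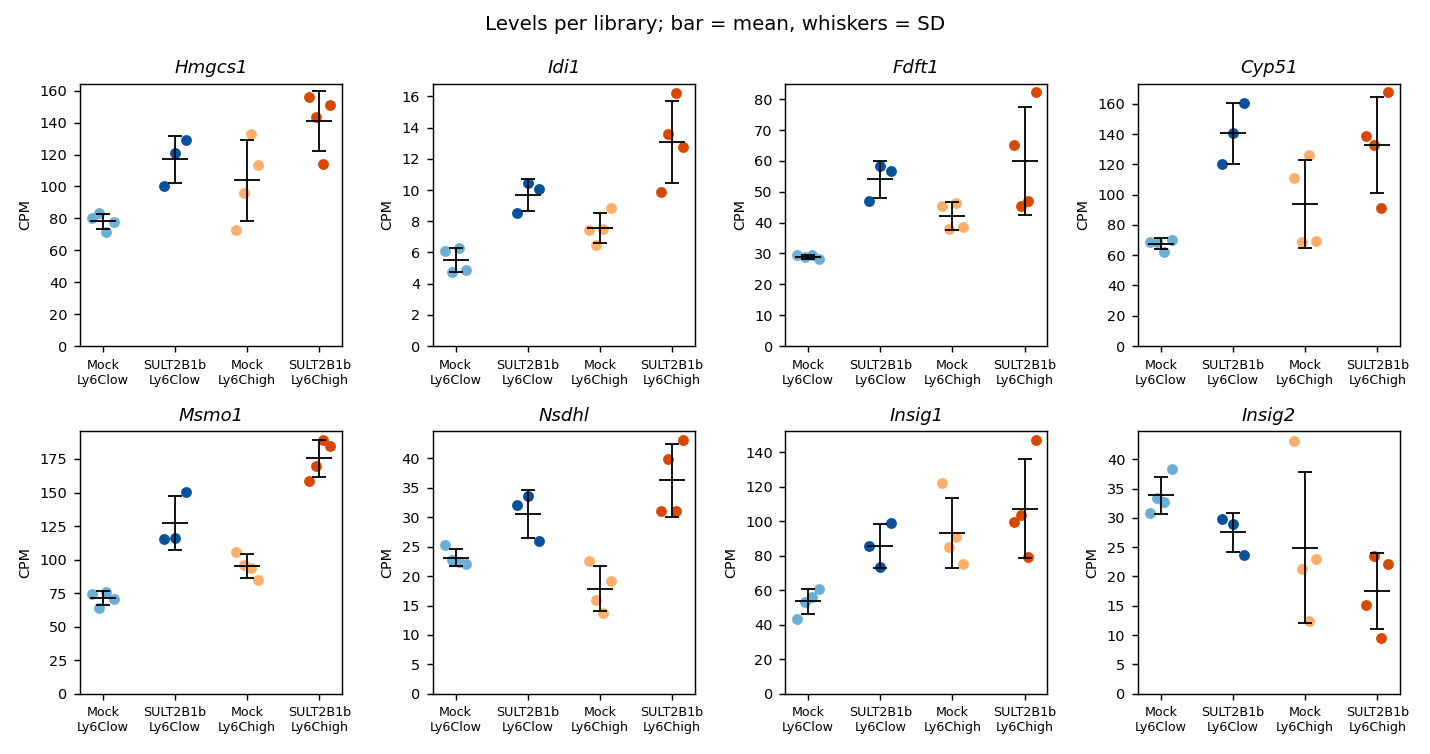
CPM per library of 8 members in the 4 groups, with the mean (bar) and SD (whiskers); n is 4, 3, 4 and 4 from left to right. Msmo1 and Idi1 separate the tumour types in both populations, and Insig2 lies lower in SULT2B1b-LLC Ly6Clow cells while its Ly6Chigh libraries overlap.

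Among the SREBP2 machinery no member passed between the tumour types. Srebf2, which encodes SREBP2 itself, stood at 174, 202, 206 and 187 CPM in Mock-LLC and at 194, 228 and 262 CPM in SULT2B1b-LLC Ly6Clow cells. In Ly6Chigh cells it stood at 231, 108, 159 and 148 CPM against 151, 137, 183 and 191 CPM. The groups overlapped in both populations, with log2 fold changes of 0.24 ± 0.20 and 0.04 ± 0.19 (adjusted p = 1 and 0.963). The proteases Mbtps1 and Mbtps2 were at -0.15 ± 0.17 and -0.40 ± 0.68 in Ly6Clow and at -0.08 ± 0.16 and 0.63 ± 0.64 in Ly6Chigh cells. Mbtps2 shares 28.4% of its exon length with Yy2, which had 0 counts. The escort Scap was at 0.39 ± 0.39 and -0.52 ± 0.37. Without SULT2B1b-LLC tumour 1 the Ly6Chigh values of Scap and Mbtps2 were -0.87 and 1.01. The median log2 fold change of the 6 genes was 0.04 in Ly6Clow and -0.02 in Ly6Chigh cells, against medians between 0.42 and 0.74 for the 4 steps of synthesis in Ly6Clow and between 0.44 and 0.69 in Ly6Chigh cells.

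The INSIG genes had log2 fold changes of opposite sign, positive for Insig1 and negative for Insig2, and neither gene passed between the tumour types. Insig1, itself a target of SREBP2 (chromosome 5, 28071363 to 28078662), stood at 43.4, 53.3, 56.3 and 60.9 CPM in Mock-LLC and at 85.5, 73.3 and 98.8 CPM in SULT2B1b-LLC Ly6Clow cells. In Ly6Chigh cells the Insig1 levels were 122, 84.7, 90.6 and 74.9 CPM against 99.2, 104, 78.9 and 147 CPM. The tumour types were apart in Ly6Clow cells and overlapped in Ly6Chigh cells. The log2 fold change was 0.68 ± 0.21 in Ly6Clow (adjusted p = 0.395) and 0.21 ± 0.20 in Ly6Chigh cells (adjusted p = 0.697). Insig2, which is not induced by SREBP2, ran from 23.7 to 29.8 CPM in SULT2B1b-LLC Ly6Clow cells, below the 30.9 to 38.4 CPM of Mock-LLC. Its log2 fold changes were -0.30 ± 0.37 in Ly6Clow and -0.50 ± 0.35 in Ly6Chigh cells and did not pass (adjusted p = 1 and 0.551).

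The sterol carrier Stard4, which moves cholesterol through the cytosol, ran from 20.3 to 31.5 CPM in Mock-LLC and from 42.3 to 47.8 CPM in SULT2B1b-LLC Ly6Clow cells. Its log2 fold change was 0.82 ± 0.33 there (adjusted p = 1) and 0.12 ± 0.31 in Ly6Chigh cells. Tmem97, a sterol-binding membrane protein of the endoplasmic reticulum, was at 0.19 ± 0.30 in Ly6Clow and 0.73 ± 0.28 in Ly6Chigh cells (adjusted p = 1 and 0.206).

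Whether the tumour type acted differently in the populations was tested as an interaction, the Ly6Chigh effect minus the Ly6Clow effect. It passed for 0 of 29 members, against 0.0145% of all genes, with 0 members at an unadjusted p under 0.05, against 7.14% of all genes, and 0 by DESeq2. The differences ran from -0.91 ± 0.54 for Scap to 1.04 ± 0.94 for Mbtps2, with 0.98 ± 0.50 for Ggps1, 0.62 ± 0.31 for Nsdhl and -0.56 ± 0.31 for Cyp51, so differences of these sizes between the populations were not resolved. That of Msmo1 was 0.05 ± 0.18.

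Between the sorted populations the members showed no common direction. Every Ly6Clow library was deeper than every Ly6Chigh library, so population and depth cannot be told apart in these comparisons. In Mock-LLC tumours 2 of 29 were higher in Ly6Chigh than in Ly6Clow cells, Insig1 and Msmo1, and 0 were lower, against 3.55% of all genes higher, 4.86% lower and 8.41% changed in either direction. Insig1 had a log2 fold change of 0.80 ± 0.20 (adjusted p = 0.0229), with all 4 Ly6Chigh libraries above the 4 Ly6Clow ones. Msmo1 had 0.42 ± 0.12 (adjusted p = 0.0495), again with no overlap. With the tumour as a block, since both populations came from the same tumours, Insig1 still passed and Msmo1 did not (adjusted p = 0.0534). Insig1 did not pass without the Ly6Clow cells of Mock-LLC tumour 1 (adjusted p = 0.0558) or its Ly6Chigh cells (adjusted p = 0.0535), and Msmo1 was lost without any of 7 libraries, with adjusted p-values up to 0.0915. Of the members' log2 fold changes 16 were positive and 13 negative, with a median of 0.01 against -0.08 over all genes. Scaling by median ratios moved the median over all genes from -0.08 to 0.05 here and from -0.03 to 0.09 in SULT2B1b-LLC tumours. Under that scaling Insig1, Msmo1 and Fdft1 passed in Mock-LLC tumours, where 8.41% of all genes had passed in the main fit.

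In SULT2B1b-LLC tumours 0 of 29 members passed between the populations with edgeR, against 2.64% of all genes in either direction, 1.10% higher and 1.54% lower. At an unadjusted p under 0.05 Msmo1 was higher in Ly6Chigh cells (0.47 ± 0.13, adjusted p = 0.0865) and Srebf2 (-0.46 ± 0.20) and Scap (-1.07 ± 0.40) were lower, against 5.89% of all genes higher and 8.91% lower. DESeq2 passed Msmo1, and limma-voom passed Msmo1 and Scap. Msmo1 also passed with edgeR without the Ly6Chigh cells of SULT2B1b-LLC tumour 1. The comparisons between populations share their libraries with those between tumour types and are given side by side only.

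Levels of different genes were compared per kb of exon, which leaves aside differences in how well each transcript was captured. The length joins all annotated exons of a gene, 10787 bases for Lss and 10105 for Mbtps2, whether or not the cells use them. In Mock-LLC Ly6Clow cells Lss had a mean of 17.4 CPM and Mvk 14.7 CPM, yet Lss ranked below Mvk per kb. The order therefore rests on the annotation too. In Mock-LLC Ly6Clow cells Ebp, Lbr, Srebf2, Pmvk and Mvd were highest, at means of 25.1 to 27.4 CPM per kb, and their ranges over libraries overlapped. In SULT2B1b-LLC Ly6Clow cells Mvd, Pmvk, Ebp, Cyp51 and Srebf2 led at 31.7 to 33.9 CPM per kb. In Ly6Chigh cells Insig1 led at 30.1 ± 6.56 in Mock-LLC and 34.6 ± 9.23 CPM per kb in SULT2B1b-LLC tumours (SD, n = 4 each), with the next members inside its range. The lowest, beside Fdps, were Idi1 and Lss in Mock-LLC Ly6Clow cells, Mbtps2 and Lss in SULT2B1b-LLC Ly6Clow cells, and Mbtps2 and Tm7sf2 in Ly6Chigh cells.

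**Figure D4:**
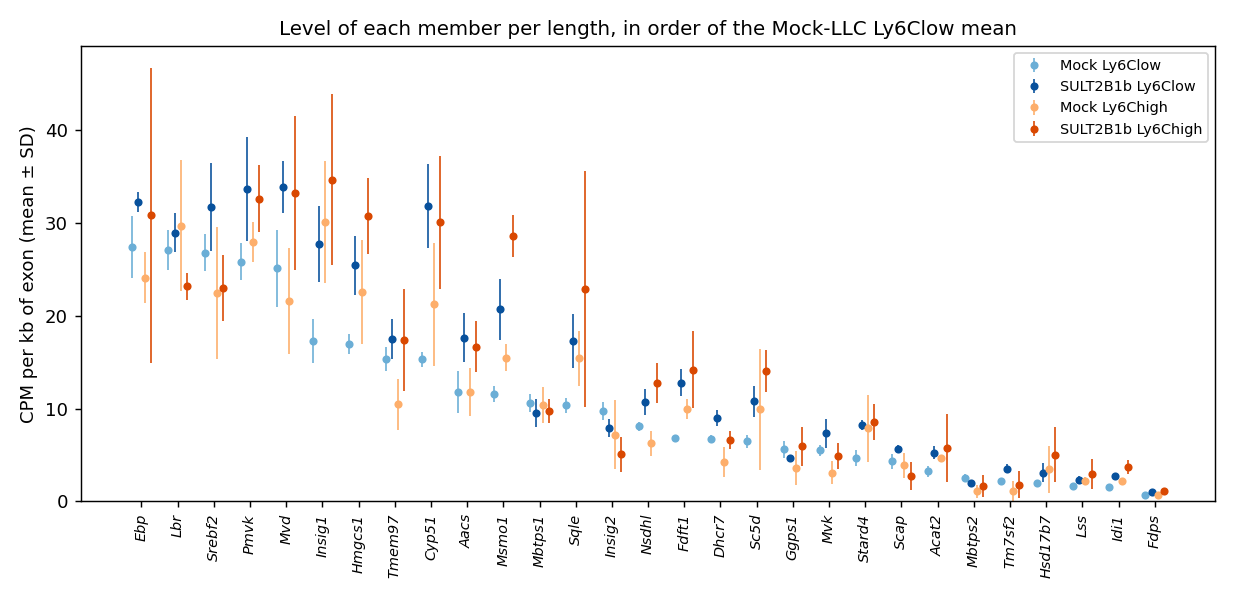
Mean CPM per kb of exon (± SD) of each member in the 4 groups, ordered by the Mock-LLC Ly6Clow mean. Insig1 has the highest mean in both Ly6Chigh groups, with the next members inside its range, and Fdps has the lowest mean in all 4.

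Genes around the route moved less as groups. Of 13 genes of the isoprenoid branch, which make coenzyme Q, dolichol and prenyl anchors, 0 passed between tumour types. Of all genes 0.638% changed in Ly6Clow cells, 1.62% in Ly6Chigh cells and 1.86% on average. The median log2 fold changes of the branch were -0.02 in Ly6Clow and -0.23 in Ly6Chigh cells. Rabggta, a subunit of the enzyme that prenylates Rab proteins, was lower in Ly6Chigh than in Ly6Clow cells of SULT2B1b-LLC tumours (-0.75 ± 0.18, adjusted p = 0.0411). Of all genes 1.54% were lower in that comparison. Of 12 genes that sense sterols or turn over the regulators, 1 rose and 0 fell on average over both populations, against 1.24% and 0.616% of all genes. It was Nr1h3, which encodes the oxysterol receptor LXR alpha (0.94 ± 0.18, adjusted p = 0.00947), from 31.2 to 40.3 CPM up to 71.4 to 74.9 CPM in Ly6Clow cells. Within Ly6Clow cells alone 0 of the 12 rose and 0 fell, against 0.507% and 0.130% of all genes, so Nr1h3 did not pass there. In Ly6Chigh cells 0 of the 12 rose and 1 fell, against 0.891% and 0.725% of all genes. There 6 values were positive and 6 negative.

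Of 15 genes that store, move or export cholesterol, 1 fell in each population and 0 rose. Of all genes 0.130% fell and 0.507% rose in Ly6Clow cells, and 0.725% fell and 0.891% rose in Ly6Chigh cells. The gene that fell was Lrp1, an endocytic lipoprotein receptor, at 771.3 to 1134 CPM in Mock-LLC and 523.8 to 539 CPM in SULT2B1b-LLC Ly6Clow cells (-0.82 ± 0.17, adjusted p = 0.0352). In Ly6Chigh cells Lrp1 ran from 518.3 to 782 CPM and from 310.9 to 452.7 CPM (-0.90 ± 0.15, adjusted p = 0.0111). Between populations in Mock-LLC tumours the lysosomal carrier Npc2 was higher in Ly6Chigh cells (0.58 ± 0.10). The lysosomal lipase Lipa (-1.04 ± 0.21), the sterol transporter Gramd1b (-1.34 ± 0.34) and the cholesterol hydroxylase Ch25h (-2.18 ± 0.45) were lower, with adjusted p-values from 0.00273 to 0.023 for these 4. Of all genes 3.55% were higher and 4.86% lower in Ly6Chigh cells of Mock-LLC tumours. In SULT2B1b-LLC tumours Lipa (-0.98 ± 0.22) and Gramd1b (-1.55 ± 0.36) were lower, against 1.54% of all genes.

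Markers of cell types moved with the tumour type beside the sterol genes. Of the 9 genes of the myeloid list, the MHC class II genes H2-Ab1 and Cd74 rose in Ly6Clow cells and 0 changed in Ly6Chigh cells, and the list summed to 16592 to 19086 and 30437 to 40546.5 CPM in Ly6Clow cells. Of 9 macrophage genes 4 rose in Ly6Chigh cells (C1qa, C1qb, C1qc and Adgre1) and 2 in Ly6Clow cells (C1qa and Apoe). Of all genes 0.891% rose in Ly6Chigh and 0.507% in Ly6Clow cells, and 0.725% and 0.130% fell. The summed level of the macrophage genes was 16686 to 20303 CPM in Mock-LLC and 26912 to 28058 CPM in SULT2B1b-LLC Ly6Clow cells, and 9237 to 11107 and 11261 to 15351 CPM in Ly6Chigh cells. The eosinophil list summed to 187 to 237 CPM and 262 to 329 CPM in Ly6Clow cells, and to 0 to 11.2 and 1.72 to 17.4 CPM in Ly6Chigh cells, where Epx was at 0 in both tumour types and Prg2 and Il5ra in Mock-LLC. Of 6 fibroblast genes Dcn and Pdgfra rose in Ly6Chigh cells, where the list summed to 131 to 723 CPM in Mock-LLC and 621 to 1518 CPM in SULT2B1b-LLC tumours, and in Ly6Clow cells to 144 to 320 and 52.1 to 149 CPM. Of 6 neutrophil genes Csf3r rose in Ly6Clow and Cxcr2 fell in Ly6Chigh cells, where the list summed to 57.8 to 103 and 96.3 to 137 CPM. The B cell list summed to 4.90 to 6.73 and 12.7 to 17.2 CPM in Ly6Clow cells, and to 6.45 to 18.7 and 4.57 to 15.1 CPM in Ly6Chigh cells. The endothelial list summed to 21.5 to 26.6 and 31.3 to 43.2 CPM in Ly6Clow cells, and to 9.15 to 73.1 and 24.6 to 67.5 CPM in Ly6Chigh cells, and 0 genes of either list passed. The epithelial gene Krt8 was at 0 in Mock-LLC Ly6Chigh cells and rose, while its list of 5 summed to 39.5 to 83.3 and 45.1 to 90.7 CPM there. Of 18 cell cycle genes 0 passed between tumour types, although the list summed to 619 to 817 and 881 to 936 CPM in Ly6Clow cells and to 265 to 337 and 332 to 501 CPM in Ly6Chigh cells. The cell cycle list had median log2 fold changes of 0.34 in Ly6Clow and 0.58 in Ly6Chigh cells, with 17 and 15 values positive. The macrophage list had medians of 0.53 and 0.70, beside 0.54 and 0.50 for the sterol members. A positive shift was therefore not particular to the sterol members. These lists differed between the populations as well. In Mock-LLC tumours 7 of 9 macrophage, 11 of 18 cell cycle and 4 of 4 eosinophil genes tested were lower in Ly6Chigh cells, and 0 were higher. Of 6 dendritic genes 2 were higher and 0 lower. Of all genes 4.86% were lower and 3.55% higher in that comparison. The part of these cell type and cell cycle lists in the differences of the sterol and cholesterol handling genes, between tumour types or between populations, was not tested.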

How the data were processed

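Tumour-infiltrating cells were profiled by RNA-seq in 15 libraries. Per the labels' protocols, RNA was purified on spin columns, the SMART-Seq v4 kit gave the cDNA libraries, and sequencing was single-end on a NextSeq instrument. The values the authors deposited are counts by gene symbol, taken as not normalized because they are whole numbers with unequal totals. STAR 2.5.3a, featureCounts, limma and the builds mm10 and GRCm38 are named in the submitters' processing notes; their options, the gene annotation and what limma was used for were not stated.

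In R 4.3.3, edgeR 4.0.16 was run on genes kept by filterByExpr with the groups (13800), with TMM scaling and a robust quasi-likelihood fit of the 4 group means. All tests were two-sided; p-values were adjusted by Benjamini-Hochberg over all genes tested in a comparison, with a threshold of 0.05. An adjusted p is from this fit unless another tool is named. The approximate SE is the size of the log2 fold change divided by the square root of its F statistic. The comparisons were tumour type within each population, their mean, population within each tumour type, and the interaction. Alternatives were other scalings and filters, DESeq2 1.42.0, limma 3.58.1 (voom, with and without quality weights), fits of only the groups compared, blocks and each library left out. The fit was also run on simulated counts with 200 genes set as changed, and no result here rests on that run.

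Gene positions and exon lengths came from GENCODE on GRCm38, by symbol. The members, steps and lists were chosen with earlier results of these data known. All members are named, with full values for those past the threshold in any comparison; the values of Idi1 and Srebf2 were added after they were seen, as were the library counts without SULT2B1b-LLC tumour 1 in Ly6Chigh cells. Results for some genes of the pathway are not reported here.

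Replicates are numbered tumours. By the labels, equal numbers in both populations mark one tumour of that type. Their deviations from group means correlated across genes at 0.0279 to 0.0936 in Mock-LLC and -0.0103 to 0.0795 in SULT2B1b-LLC tumours. Depth limits the Ly6Chigh values most: a floor of 3 counts lay at 0.272 to 1.14 CPM there and at 0.0777 to 0.153 CPM in Ly6Clow cells, for counting error only.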

Additional observations from a re-analysis of the deposited data

Results flagged for a closer look

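Of 87 groups of 4 libraries examined, 5 held a library whose gap to its nearest neighbour passed Dixon's 95% critical value as a share of the whole range, where chance gives about 1 in 20. Hsd17b7 in Mock-LLC Ly6Clow cells stood at 8.05 CPM in tumour 4, below the 10.4 to 10.7 CPM of the others. Ebp in SULT2B1b-LLC Ly6Chigh cells stood at 16.3 CPM in tumour 1, below 85.8 to 94.4 CPM. Sc5d in Mock-LLC Ly6Chigh cells stood at 95.4 CPM in tumour 3, above 28.3 to 37.4 CPM. Sc5d in SULT2B1b-LLC Ly6Chigh cells stood at 84.4 CPM in tumour 1, above 60.8 to 64.5 CPM. Mbtps1 in Mock-LLC Ly6Clow cells stood at 126 CPM in tumour 2, above 105 to 108 CPM. The library of SULT2B1b-LLC tumour 1 in Ly6Chigh cells, the shallowest of all, thus held 2 of the 5.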

How the results depend on the processing

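Across 259 alternative values of single members past the threshold, 190 kept direction and threshold, 69 kept direction only and 0 reversed. The number of members past the threshold moved more. The share of all genes changed in either direction under the same setting follows in brackets. It is not given for the ranges with 1 library left out or for the interaction. In Ly6Chigh cells (2 in the main test) it was 1 with no filter (0.313%), 1 with voom (1.46%), 0 with voom and quality weights (0.138%) and 0 in a fit of only these libraries (0.0257%), and leaving out 1 library gave 1 to 3. In Ly6Clow cells (2) it was 1 with no scaling factors (0.674%), 0 with no filter (0.181%), 4 with DESeq2 (1.43%), 14 with voom and quality weights (5.09%) and 8 in a fit of only these libraries (2.88%), and leaving out 1 library gave 0 to 3, the 0 without SULT2B1b-LLC tumour 4. Averaged over both populations (5) it was 2 with no filter (0.414%) and 8 with DESeq2 (4.26%), and leaving out 1 library gave 1 to 6, with Msmo1 alone past the threshold when the Ly6Clow cells of SULT2B1b-LLC tumour 3 or 4 were left out. Between populations in Mock-LLC (2) it was 0 with no filter (1.74%), 4 with DESeq2 (13.6%), 4 in a fit of only these libraries (8.07%) and 0 to 3 with 1 library left out. Between populations in SULT2B1b-LLC (0) it was 1 with median-ratio scaling (2.67%), no scaling factors (2.64%), a stricter filter (3.38%) or DESeq2 (6.33%), 2 with voom with (5.21%) or without quality weights (4.72%), and 0 to 1 with 1 library left out. The interaction stayed at 0 in all alternatives run. Apart from fewer genes or libraries in a fit, the cause was not tested.

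With the replicate block the count was 1 in Ly6Chigh (0.674%) and 1 in Ly6Clow cells (0.457%), both Msmo1, where tumours of the 2 types share only a number, with correlations of -0.0750 to 0.00622 and -0.114 to 0.0267. Blocked by tumour, it was 1 between populations in Mock-LLC (6.39%), 0 in SULT2B1b-LLC (1.47%), and 6 for the average with voom (2.7%). Depth limits Ly6Chigh cells most: Tm7sf2, Mbtps2 and Fdps had minima of 0, 4 and 12 counts.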
